A study of Mus musculus with 8 samples.

Results

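The miR-125, miR-99/100 and miR-10 families were examined in the amygdala of mice after auditory fear conditioning. The members are every capture probe with a mouse name whose stem is mmu-miR-125a, mmu-miR-125b, mmu-miR-99a, mmu-miR-99b, mmu-miR-100, mmu-miR-10a or mmu-miR-10b, whichever arm of the hairpin it reads. This rule found 15 of the 1034 mouse names on the array: 5 arms of miR-125, 6 of miR-99/100 and 4 of miR-10. They comprise 7 mature arms and 8 arms from the other side of the hairpin, which the array's design marks with an asterisk or with 3p.

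The mice were adult males on the C57/Bl6J background, 4 left in the home cage and 4 given 5 tone and shock pairings (6 kHz, 0.6 mA) and killed 30 min afterwards. No genotype other than the C57/Bl6J background is given, so both groups share it. Amygdala from both sides was taken as 1 mm punches, and 500 ng of total RNA per mouse was labelled with the dye Hy3 and hybridised, 1 mouse per array, with a Hy5-labelled pool of all the mice. The punch holds several amygdala nuclei and every cell type in them, so a lower level cannot be told apart between fewer cells of a type and less RNA per cell.

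A microRNA (miRNA) guides Argonaute proteins to messenger RNAs that match its seed, bases 2 to 8 from its 5′ end, and lowers their stability or translation. The miR-125 family is the vertebrate relative of lin-4, the developmental timing miRNA of Caenorhabditis elegans. In rodent neurons miR-125b is known to act on the NMDA receptor subunit NR2A and miR-125a on the postsynaptic scaffold PSD-95, both with the fragile X protein FMRP. The miR-99/100 family is known for repressing mTOR, the kinase that controls protein synthesis, in human cell lines. The miR-10 family lies inside Hox gene clusters and is known from the hindbrain and spinal cord, where Hox genes are on, rather than from the forebrain; in zebrafish it represses Hox genes.

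The mature sequences below show what the families share and where they differ. They were taken from RefSeq on the mouse build GRCm38.p6, are written 5′ to 3′, and carry the seed in capitals. All 15 members matched a RefSeq mature miRNA.
mmu-miR-125a-5p: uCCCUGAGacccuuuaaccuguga
mmu-miR-125b-5p: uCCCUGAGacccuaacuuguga
mmu-miR-351: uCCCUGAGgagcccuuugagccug
mmu-miR-99a: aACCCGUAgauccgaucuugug
mmu-miR-99b: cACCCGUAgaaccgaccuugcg
mmu-miR-100: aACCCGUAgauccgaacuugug
mmu-miR-10a: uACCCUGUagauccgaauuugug
mmu-miR-10b: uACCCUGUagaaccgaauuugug

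The miR-125 seed is carried by 5 of 1679 mature mouse names in the RefSeq table (0.298%), among them miR-351, which is not a member and is shown for comparison. The miR-99/100 seed occurs in 3 names (0.179%) and the miR-10 seed in 2 (0.119%), all of them members. Counting from 1 at the 5′ end, miR-99a and miR-100 differ by the single substitution U16A, and miR-10a and miR-10b by U12A, both outside the seed. The sources used here do not say how well the probes tell such pairs apart, so each value of miR-99a, miR-100, miR-10a or miR-10b may include signal from its near copy.

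The other arms do not keep the family seed, as the pair from miR-99a and miR-99b shows.
mmu-miR-99a*: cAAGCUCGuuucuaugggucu
mmu-miR-99b*: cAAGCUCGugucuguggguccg
mmu-miR-125b-1-3p: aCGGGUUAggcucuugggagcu
mmu-miR-125b-2-3p: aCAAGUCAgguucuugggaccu
The first pair share a seed of their own, in 2 names (0.119%). The last pair are shown because they come from the separate hairpins whose 5p arms are both miR-125b-5p, and only these 3p arms tell those hairpins apart on the array.

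The members come from 5 loci. On chromosome 17 the mature arms of miR-99b (chr17:17830194-17830215, plus strand) and miR-125a (chr17:17830817-17830840, plus strand) flank let-7e inside the protein-coding gene Spaca6, in a cluster of 3 hairpins that spans 692 bases. On chromosome 16 miR-99a (chr16:77598940-77598961, plus strand), let-7c-1 and miR-125b-2 (chr16:77646279-77646300, plus strand) span 47408 bases and overlap no annotated host gene. On chromosome 9 miR-100 (chr9:41531437-41531458, plus strand), let-7a-2 and miR-125b-1 (chr9:41581940-41581961, plus strand) span 50578 bases within the long noncoding RNA Mir100hg. MiR-10a (chr11:96317186-96317208, plus strand) overlaps Hoxb3, 993 bases from Hoxb4, and miR-10b (chr2:74726074-74726096, plus strand) overlaps Hoxd3 and Hoxd4.

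The amounts were read in 2 ways from the same arrays. The Hy3 signal is the log2 brightness of the sample's channel after background correction and quantile normalisation, on which 1 unit is a doubling. The deposited ratio is the authors' log value of sample over pool, taken here as log2. A probe counted as above background on an array when its background-corrected log2 signal, before quantile normalisation, exceeded the 95th percentile of that array's negative control spots, which between 565 and 657 mouse probes did per array. Home cage array 1 stood apart: its mean correlation with the other arrays was 0.969 against 0.988 to 0.992 for the rest, and 13.5% of its capture spots, against 0.219% to 3.98% elsewhere, had a local background over 1.2 times the array's median. Each array lay on its own slide and the groups' slides carry separate number runs, so the slides cannot be told apart from the groups.

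Both miR-125 mature arms and the 3 miR-99/100 mature arms were above background on all 8 arrays, while of the miR-10 arms only miR-10a was. In all, 9 of the 15 members were above background on every array, against 46.4% of all mouse names. By family these were 4 of 5 miR-125 arms, 4 of 6 miR-99/100 arms and 1 of 4 miR-10 arms. MiR-125b-2-3p was above background on 7 arrays and missed it on home cage array 1. MiR-99b* was above it on the 7 arrays that gave a value, all of its spots having been left out by their flags on fear conditioned array 3. MiR-10b passed only on home cage array 3, miR-10a* only on fear conditioned array 2, and miR-100* and miR-10b* on 0 of 8.

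The distance to background, on the log2 Hy3 scale before quantile normalisation, had a median over the 8 arrays of 6.89 for miR-125b-5p (range 6.10 to 7.36) and 4.81 for miR-125a-5p (4.03 to 5.49). For miR-99a it was 2.36 (0.92 to 2.84), for miR-99b 1.75 (1.09 to 2.28) and for miR-100 1.78 (0.15 to 2.43). MiR-10a cleared the limit by only 0.085 (0.041 to 0.18), and miR-10b lay at -0.062 (-0.11 to 0.025). Brightness depends on the probe as well as on the miRNA, so these distances say how far each probe can be read and do not rank the miRNAs. For miR-10b, miR-10a*, miR-100* and miR-10b* the differences given are thus differences of signal at background, from which no fold of the RNA follows.

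**Figure D1:**
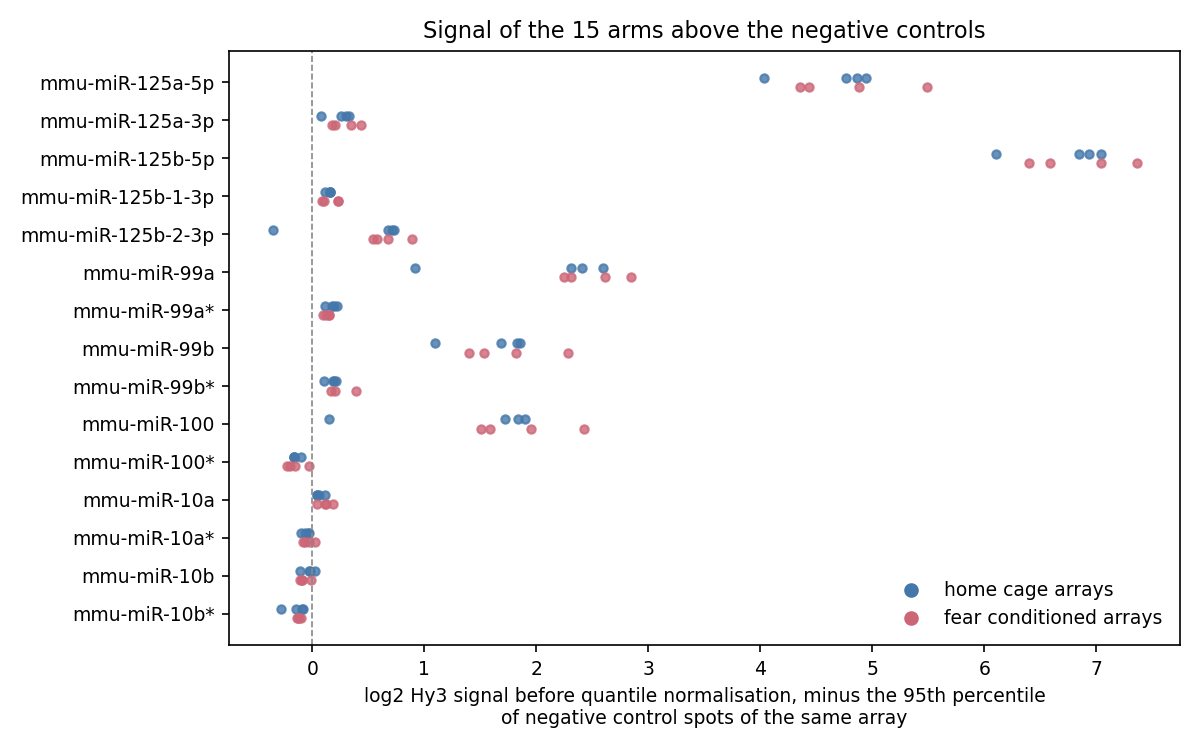
Each point is 1 array, placed on the x axis by the log2 Hy3 signal of a member before quantile normalisation minus the 95th percentile of the negative control spots of the same array (dashed line at 0), with home cage arrays in blue above fear conditioned arrays in red. The mature arms of miR-125 and miR-99/100 lie to the right of the line on all 8 arrays, the miR-10 arms lie on or beside it, and home cage array 1 is the low blue point of miR-100, miR-99a and miR-125b-2-3p.

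No member passed the adjusted threshold 30 min after fear conditioning, in either measure. In the Hy3 signal, limma's test over all 1034 mouse names called 2 (0.193%) at an adjusted p under 0.05, and 0 of the 15 members. At an unadjusted p under 0.05 it called 146 names (14.1%) and 2 members, miR-99b and miR-99a*. In the deposited ratio it called 0 of 1033 names (0%) and 0 members after adjustment, and 79 names (7.65%) and 2 members, miR-125a-5p and miR-125b-1-3p, before it. A count of 2 among 15 members lies near the background share in Hy3, and in the ratio it is 2 single arms.

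Direction differed between the measures. In Hy3, 9 of 15 members were lower after conditioning, against 52.3% of all names. This count was 3 under median centring, 13 under spike-in centring and 12 under centring on the bright probes. Of all 1034 names, 244, 838 and 816 were lower under these centrings, so under them the member counts moved with the whole array. Elsewhere they did not. With spots of high local background left out, 13 members and 540 names were lower, against 541 names in the main fit. Without home cage array 1, 12 members and 531 names were lower. In the ratio 3 of 15 were lower, against 36.8% of all names. This count was 6 when home cage array 1 or 3 was left out, with 424 and 371 of all 1033 names lower. It was 8 without fear conditioned array 1 (395 names). It was 5 without fear conditioned array 4 (397 names) or when the ratios were centred on their medians (420 names). Only 7 of the 15 members, and 4 of the 9 that were above background on all arrays, had the same sign in both. Median differences were small: -0.016 over the members and -0.0043 over all names in Hy3, and 0.047 and 0.031 in the ratio.

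**Figure D2:**
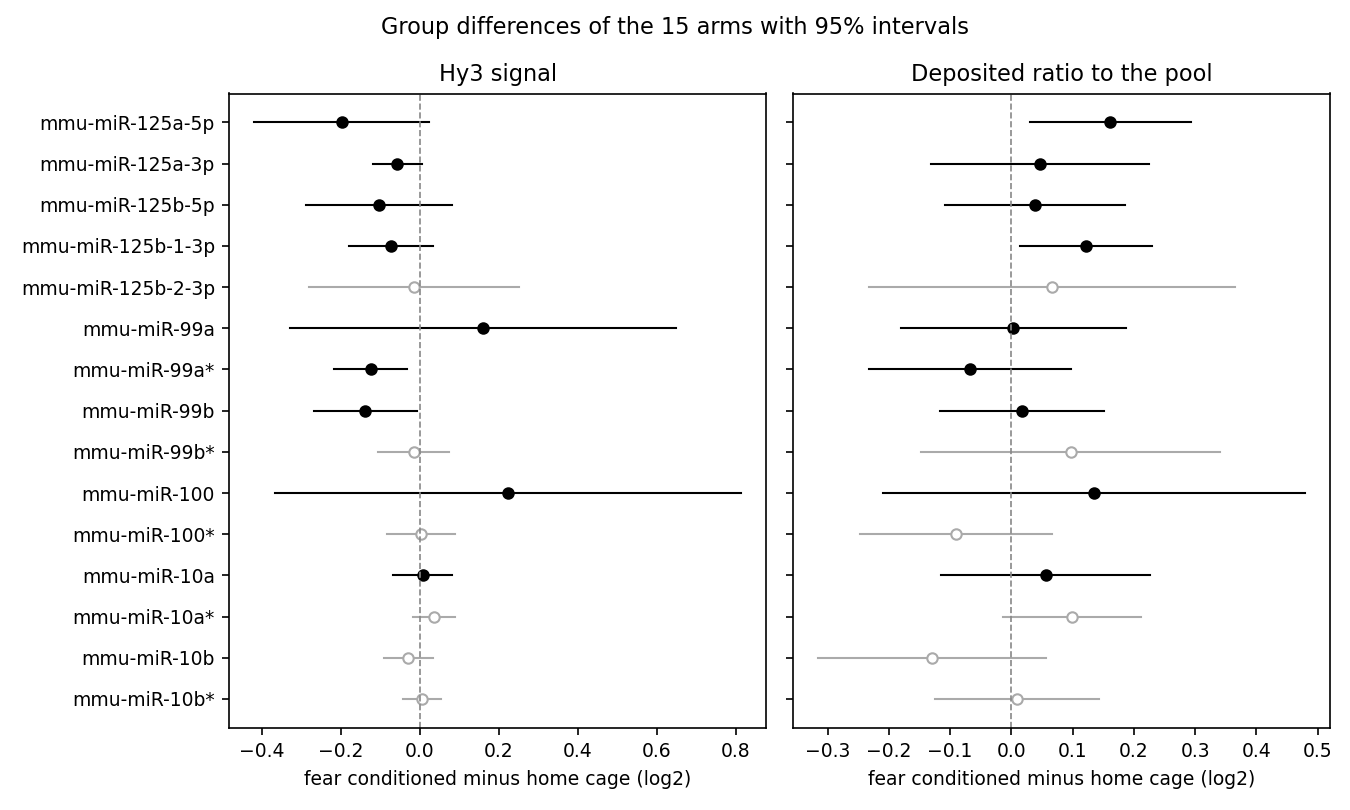
Fear conditioned minus home cage difference of each member on the log2 scale (point) with its 95% interval from limma (bar), in the Hy3 signal on the left and in the deposited ratio on the right; filled points mark probes above background on every array, open grey points the rest. The miR-125 arms lie left of 0 in Hy3 (to its right under median centring) and right of 0 in the ratio, and the bars of miR-100 and miR-99a are the widest among the members in Hy3.

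The miR-125 arms were lower in Hy3 and higher in the ratio. All 5 were below 0 in Hy3, with a median of -0.073, but all 5 were above 0 when each array was centred on its median instead of quantile normalised (median 0.12). Of all 1034 names, 541 were below 0 after quantile normalisation and 790 above 0 under median centring. With an offset of 10, without background subtraction, under bright-probe centring, or without home cage array 2, 3 or 4 or fear conditioned array 4, 4 of the 5 were below 0. In the ratio all 5 were above 0, as were 653 of all 1033 names. Their median was 0.066, but 1 was below 0 without home cage array 1 and 2 were without fear conditioned array 1. None of the 5 passed the adjusted threshold in either measure.

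MiR-125a-5p showed the split most clearly. Home cage arrays 1 to 4 had Hy3 signals of 11.45, 11.21, 11.32 and 11.11, and fear conditioned arrays 1 to 4 had 10.93, 11.07, 11.01 and 11.29. Fear conditioned arrays 1 to 3 lay below every home cage array and array 4 lay within the home cage range, so the groups overlapped. The means were 11.27 ± 0.15 and 11.07 ± 0.16 (SD, n = 4 each), a fear conditioned minus home cage difference of -0.20 (SE 0.096, 95% interval -0.42 to 0.024, limma adjusted p = 0.390). An exact two-sided permutation test gave p = 0.114 in Hy3. With spots of high local background left out, the difference was -0.14 (95% interval -0.34 to 0.053, limma adjusted p = 0.382). Fear conditioned array 2, at 11.11, then lay above home cage array 4, at 11.08. The deposited ratio of miR-125a-5p to the pool was -0.32, -0.34, -0.19 and -0.33 in the home cage and -0.091, -0.076, -0.22 and -0.14 after conditioning. Here the conditioned arrays were the higher ones, with an overlap made by home cage array 3 and fear conditioned array 3. The ratio difference was 0.16 (SE 0.059, 95% interval 0.030 to 0.29, limma adjusted p = 0.594), and an exact two-sided permutation test on this arm alone gave p = 0.0571.

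MiR-125b-5p differed less. Home cage arrays had Hy3 signals of 13.48, 13.25, 13.34 and 13.13, and conditioned arrays had 13.07, 13.16, 13.27 and 13.29. The ranges overlapped over most of their width. The difference was -0.10 (95% interval -0.29 to 0.082, limma adjusted p = 0.564) in Hy3 and 0.039 (-0.11 to 0.19, adjusted p = 0.881) in the ratio. With 1 array left out it ran from -0.16 to -0.044 in Hy3 and from 0.0098 to 0.097 in the ratio. The Hy3 interval thus spans from -0.29 to 0.082 on the log2 scale at this number of arrays. Because the same mature RNA comes from chromosomes 9 and 16, its level says nothing about either hairpin alone.

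The 3p arms that do tell the hairpins apart were dim. MiR-125b-1-3p, from chromosome 9, had ratios of 0.019, -0.026, 0.065 and 0.041 in the home cage and 0.16, 0.13, 0.14 and 0.16 after conditioning. Every conditioned array lay above every home cage array, a difference of 0.12 (SE 0.049, 95% interval 0.014 to 0.23, limma adjusted p = 0.594). Groups without overlap occurred in 5.43% of the names with a ratio on every array, and in 2 of the 14 such members, this arm and miR-10a*. In Hy3 miR-125b-1-3p instead differed by -0.073 (95% interval -0.18 to 0.033, adjusted p = 0.478), so the groups overlapped in the quantile-normalised signal. The scanner signal before any correction did not overlap, at 77.3 to 81.4 in the home cage and 88.2 to 92.7 after conditioning, with local backgrounds of 50.3 to 51.8 and 51.5 to 59.6. Uncorrected brightness of the whole array did not overlap either. The 95th percentile of the capture spots was 498 to 589 in the home cage and 600 to 901 after conditioning.

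MiR-125b-2-3p, from chromosome 16, differed by -0.014 in Hy3 (95% interval -0.28 to 0.25, limma adjusted p = 0.955) with 1 low array, home cage array 1 at 6.69 against 7.14 to 7.20 on the other home cage arrays. On that array 2 of its 4 spots had local backgrounds of 233 and 338, where spots on the other 7 arrays had 50 to 55. The spot at 233 and 1 spot at 51 were left out by their flags. The value of 6.69 thus rests on 2 spots, with backgrounds of 51 and 338. With spots of high local background left out, the difference of miR-125b-2-3p became -0.19 (95% interval -0.37 to -0.017, adjusted p = 0.227). MiR-125a-3p differed by -0.057 in Hy3 (95% interval -0.12 to 0.0050, adjusted p = 0.382) and by 0.047 in the ratio (adjusted p = 0.881). With spots of high local background left out, its Hy3 difference was -0.11 (95% interval -0.22 to -0.0047, adjusted p = 0.241).

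MiR-351, which carries the miR-125 seed from another gene, was above background on all 8 arrays and had the same pair of signs. Its mean Hy3 signal was 7.68 ± 0.081 without and 7.54 ± 0.095 with conditioning (SD, n = 4 each), which is a difference of -0.14 (95% interval -0.27 to -0.0042, limma adjusted p = 0.344), and its ratio differed by 0.046 (adjusted p = 0.868). This describes the probe and is no test of the seed.

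**Figure D3:**
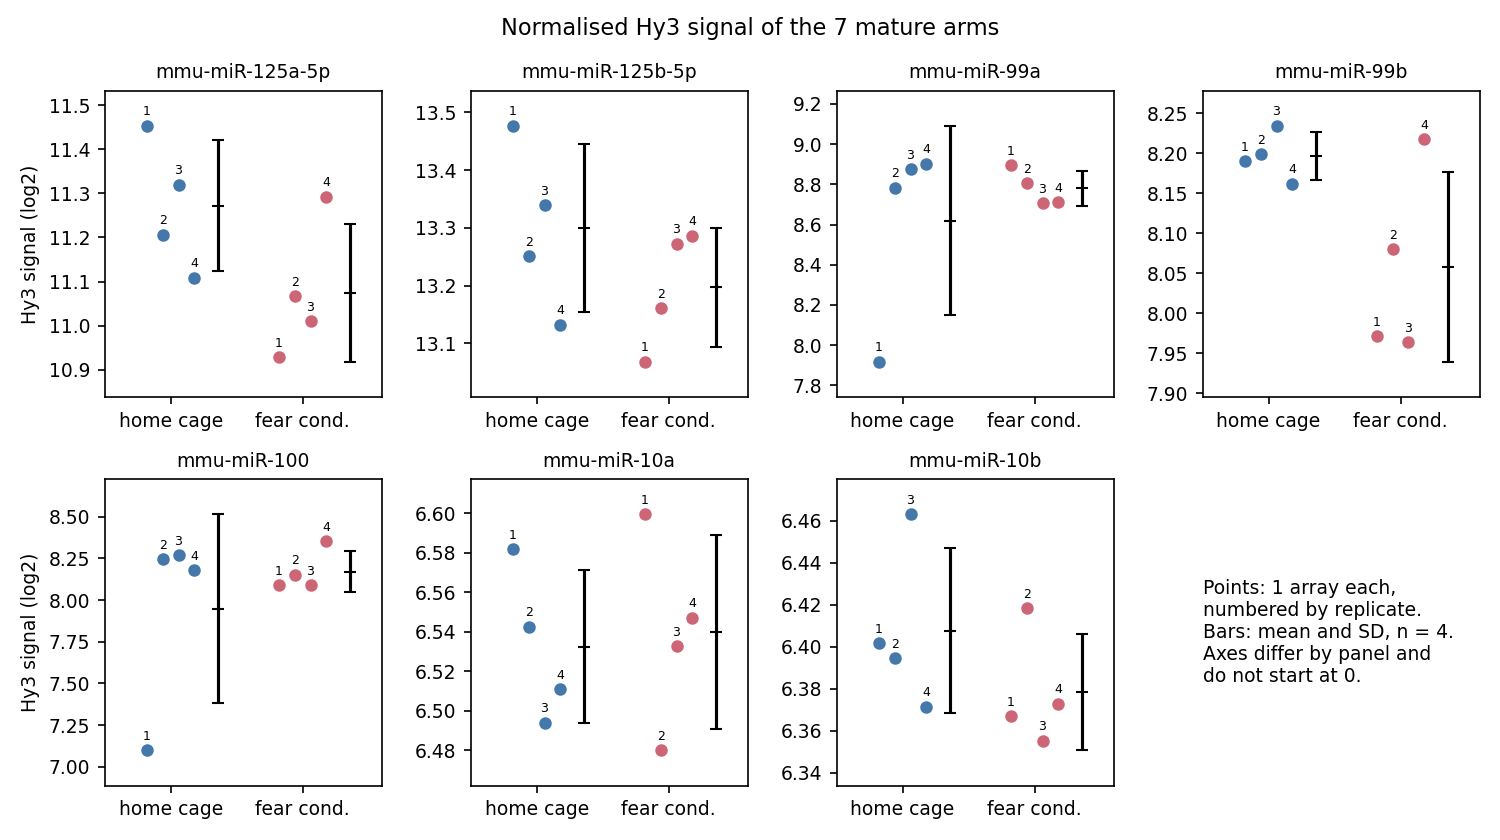
Normalised Hy3 signal (log2, y axis) of the 7 mature arms on each array, with home cage arrays in blue, fear conditioned arrays in red, replicate numbers above the points, and mean and SD (n = 4) as bars. Home cage array 1 lies at 7.10 for miR-100 and 7.92 for miR-99a, below all other arrays, while it is the highest array for miR-125a-5p and miR-125b-5p.

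The miR-99/100 arms did not move together. In Hy3 3 of the 6 were higher and 3 lower, with a median of -0.0065, and in the ratio 4 were higher and 2 lower, with a median of 0.011. The 2 arms with an unadjusted p under 0.05 in Hy3, miR-99b and miR-99a*, were both lower, miR-99b with the sign turned under median centring.

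MiR-99b, the first hairpin of the chromosome 17 cluster, read 8.19, 8.20, 8.23 and 8.16 in the home cage and 7.97, 8.08, 7.96 and 8.22 after conditioning. Fear conditioned arrays 1 to 3 were below every home cage array and array 4 was within their range. The means were 8.20 ± 0.030 and 8.06 ± 0.12 (SD, n = 4 each), a difference of -0.14 (SE 0.056, 95% interval -0.27 to -0.0075, limma adjusted p = 0.344), and under median centring the sign turned to 0.14. The ratio differed by 0.018 (95% interval -0.12 to 0.15, adjusted p = 0.925), with its highest value, 0.059, on fear conditioned array 4. The local background of miR-99b was between 50 and 54 on every spot, home cage array 1 included. Its Hy3 value still depended on the spots of other probes through the normalisation. With spots of high local background left out on every array, the Hy3 difference of miR-99b was -0.12 (95% interval -0.26 to 0.015, limma adjusted p = 0.295).

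MiR-99a* was the only member whose groups did not overlap in Hy3, where this held for 9.47% of the 1003 names with a value on every array and 1 of 14 members. It read 6.79, 6.63, 6.69 and 6.63 in the home cage and 6.59, 6.59, 6.55 and 6.51 after conditioning. Each conditioned array lay below each home cage array, although all 8 were within 0.22 of the background limit. The value of 6.51 on fear conditioned array 4 rests on the spot with a signal of 82.4. Its spots at 84.4, 86.8 and 89.6 were left out by their flags. The scanner signal before any correction overlapped, at 81.0 to 83.0 in the home cage and 82.3 to 85.7 after conditioning. The Hy3 difference of miR-99a* was -0.12 (SE 0.040, 95% interval -0.22 to -0.031, limma adjusted p = 0.301). In the ratio it differed by -0.068 (95% interval -0.23 to 0.098, adjusted p = 0.832), with overlapping groups. MiR-99a* and miR-10b were the only members whose Hy3 difference kept its sign, here negative, under each of the alternatives run.

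MiR-99a and miR-100 turned on home cage array 1. MiR-100 read 7.10, 8.24, 8.27 and 8.18 in the home cage and 8.09, 8.15, 8.09 and 8.35 after conditioning. Array 1 was the lowest of the 8 by a wide gap, and the other arrays of the groups overlapped. The difference was 0.22 (SE 0.255, 95% interval -0.37 to 0.81, limma adjusted p = 0.692), and without home cage array 1 it was -0.059. MiR-99a read 7.92, 8.78, 8.88 and 8.90 in the home cage and 8.90, 8.80, 8.71 and 8.71 after conditioning, with the same array lowest. Its difference was 0.16 (SE 0.211, 95% interval -0.33 to 0.65, adjusted p = 0.736), and without home cage array 1 it was -0.074.

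The spots of these probes on home cage array 1 carried an uneven local background. Of the 4 spots of miR-100 there, 2 had local backgrounds of 50 and 51 and signals of 216 and 222, and the other 2 had backgrounds of 174 and 298 and signals of 171 and 195. The 28 spots on the other arrays had backgrounds of 48 to 72 and signals of 207 to 453. MiR-99a likewise had 2 spots with backgrounds of 50 and 52 and signals of 339 and 379, and 2 with backgrounds of 74 and 219 and signals of 219 and 208. Among the 60 member spots of home cage array 1, 14 had a local background over 1.2 times the array's median, against 0 to 2 of 60 on each other array. They belonged to 7 probes: miR-100, miR-99a, miR-125b-2-3p, miR-125a-3p, miR-99b*, miR-100* and miR-10b*.

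With such spots left out on every array, the median capture signal of home cage array 1 before normalisation moved from 7.23 to 6.15, where the other arrays had medians of 6.17 to 6.26. MiR-100 on that array then read 7.96, against 8.17, 8.19 and 8.09 on the other home cage arrays and 7.95 to 8.28 after conditioning. Its group difference became -0.015 (95% interval -0.20 to 0.17, limma adjusted p = 0.934). MiR-99a read 8.64 there, against 8.72, 8.82 and 8.84 in the other home cage mice, and its difference became -0.013 (95% interval -0.16 to 0.13, adjusted p = 0.928). Without these spots neither Hy3 difference was positive. The deposited ratio of miR-100 on home cage array 1 was also low, -0.75 against 0.018, -0.13 and -0.18, while that of miR-99a, 0.0051 against 0.11, 0.019 and 0.15, lay above that of fear conditioned array 4 at -0.15. The ratio differences were 0.14 for miR-100 (95% interval -0.21 to 0.48, adjusted p = 0.848) and 0.0033 for miR-99a (-0.18 to 0.19, adjusted p = 0.993). The part of the local background in the deposited ratios was not tested.

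**Figure D4:**
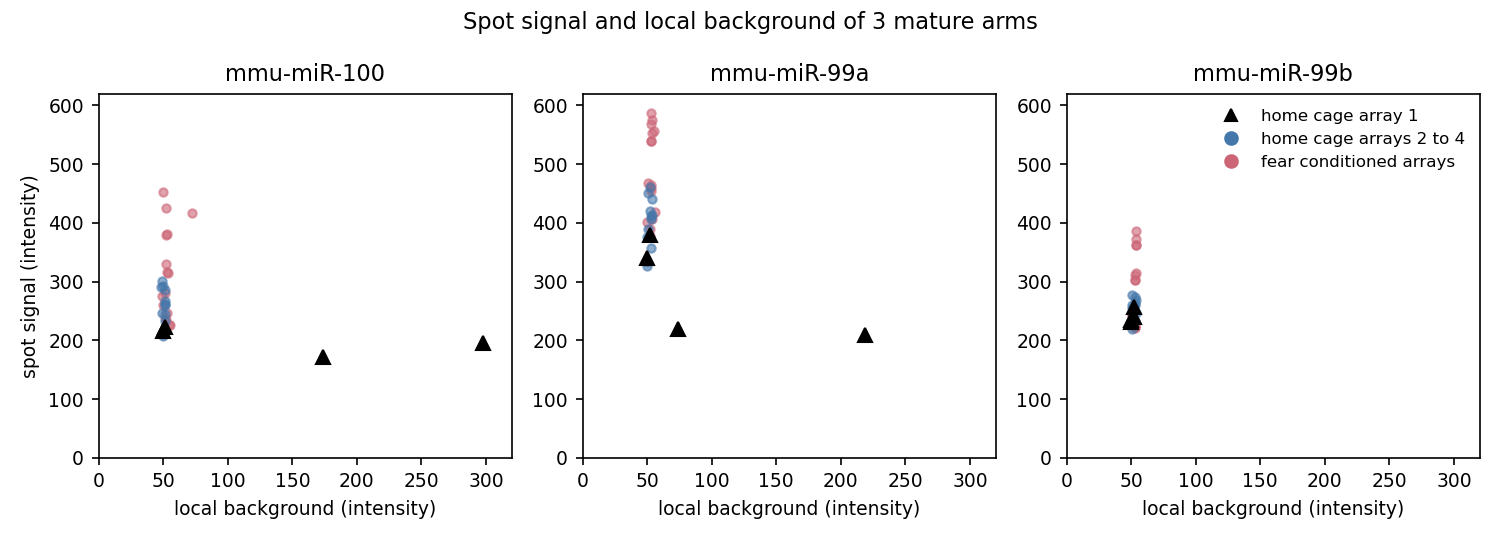
Spot signal (y axis) against local background (x axis), both in scanner intensity units, for every spot of miR-100, miR-99a and miR-99b, with 4 spots per array; black triangles are home cage array 1, blue points home cage arrays 2 to 4 and red points the fear conditioned arrays. For miR-100 and miR-99a, 2 triangles each lie to the right of and below the other spots, while all 4 triangles of miR-99b lie among them.

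The other arms of these hairpins differed little. MiR-99b* differed by -0.016 in Hy3 (95% interval -0.11 to 0.075, limma adjusted p = 0.848) over 4 home cage and 3 conditioned arrays, since fear conditioned array 3 gave no value. MiR-100*, not above background on every array, differed by 0.0030 (-0.083 to 0.089, adjusted p = 0.969) in Hy3 and by -0.091 (-0.25 to 0.066, adjusted p = 0.730) in the ratio.

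The miR-10 arms, the Hox-linked set, lay at the edge of detection, and 0 of the 4 passed in either measure. MiR-10a read 6.58, 6.54, 6.49 and 6.51 in the home cage and 6.60, 6.48, 6.53 and 6.55 after conditioning. The groups overlapped, with a difference of 0.0075 (95% interval -0.067 to 0.082, limma adjusted p = 0.920) in Hy3 and 0.056 (-0.11 to 0.23, adjusted p = 0.868) in the ratio. MiR-10b read 6.40, 6.39, 6.46 and 6.37 in the home cage and 6.37, 6.42, 6.36 and 6.37 after conditioning. Its difference was -0.029 (95% interval -0.092 to 0.033, adjusted p = 0.631) in Hy3 and -0.13 (-0.32 to 0.057, adjusted p = 0.687) in the ratio.

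MiR-10a* had ratios of -0.0041, -0.10, -0.11 and -0.090 in the home cage and 0.067, 0.0082, 0.016 and 0.0016 after conditioning. The conditioned arrays were all above the home cage arrays, the closest pair being fear conditioned array 4 and home cage array 1, but the Hy3 signal was above background on only 1 of 8 arrays. The ratio differed by 0.099 (95% interval -0.014 to 0.21, limma adjusted p = 0.594) and the Hy3 signal by 0.036 (-0.017 to 0.089, adjusted p = 0.481). MiR-10b* differed by 0.0052 in Hy3 and 0.0092 in the ratio.

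**Figure D5:**
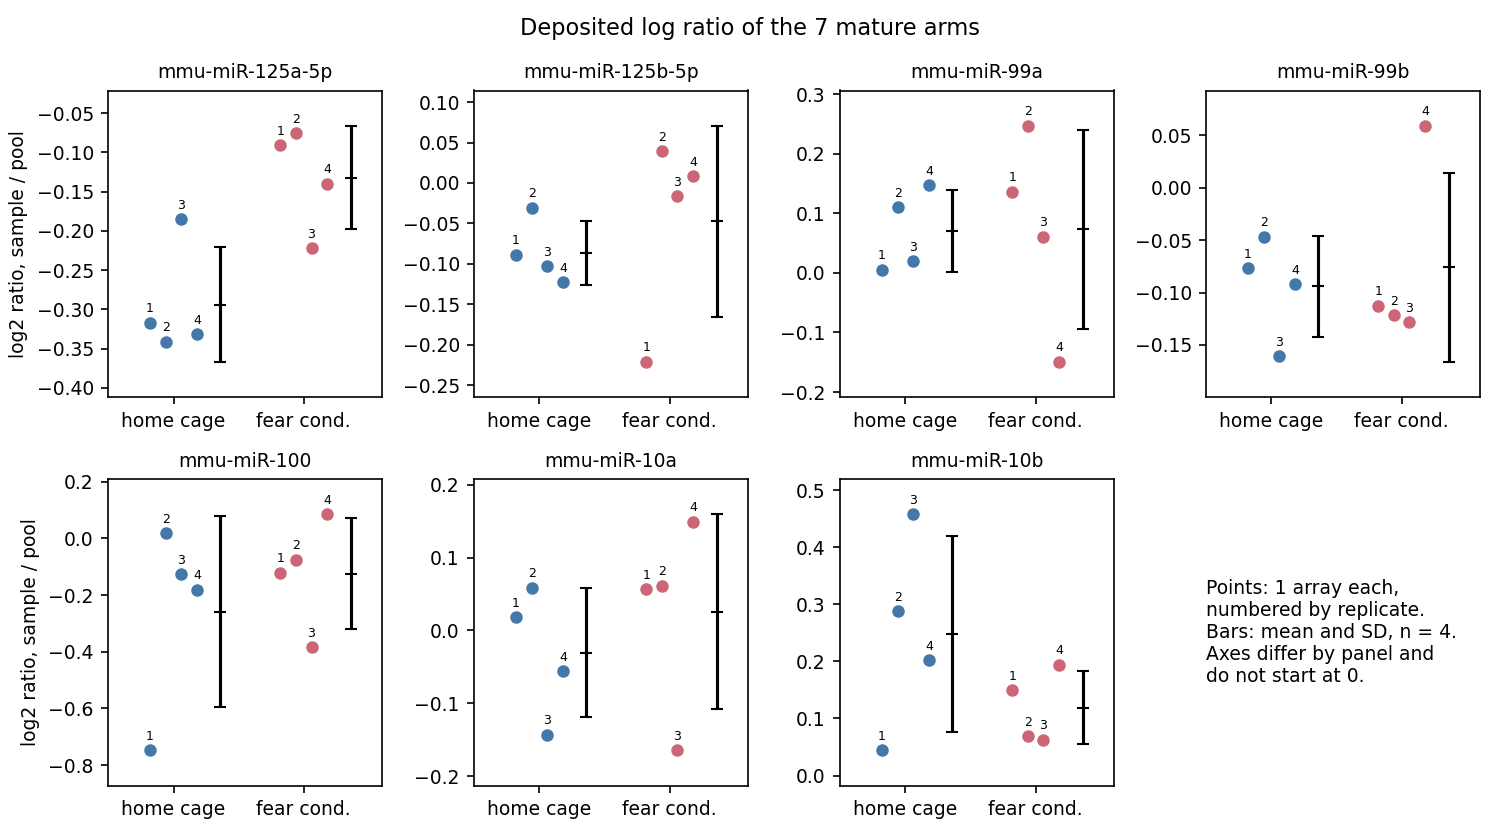
Deposited ratio of sample to pool (taken as log2, y axis) of the 7 mature arms on each array, drawn like the Hy3 values. For miR-125a-5p the fear conditioned arrays lie at -0.22 to -0.076 and the home cage arrays at -0.34 to -0.19, and for miR-100 home cage array 1 lies at -0.75.

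Set against the other families, the miR-10 arms had the smaller spread in the quantile-normalised Hy3 signal. The mean over the 4 miR-10 arms was 6.41 ± 0.0090 on home cage arrays and 6.42 ± 0.012 on conditioned arrays (SD, n = 4 arrays each), which differ by 0.0048. Over the 10 miR-125 and miR-99/100 arms with a value on every array it was 8.27 ± 0.097 and 8.24 ± 0.030, a difference of -0.032. The gap between the sets differed by 0.037 between the groups, with an SD of 0.098 over the home cage arrays. Both values turned on home cage array 1: without it the other arms differed by -0.077 and the gap by 0.084, with an SD of 0.035. With all arrays kept but spots of high local background left out, the gap differed by 0.093. Its SDs were then 0.034 over the home cage and 0.036 over the conditioned arrays. The gap differed by -0.14 when arrays were centred instead of quantile normalised and by -0.035 in the ratio. Without home cage array 1 it differed by 0.026 when centred and by -0.0075 in the ratio, so the centred value also turned on that array. These values describe the sets and carry no test. The smaller spread of miR-10 depended on the scaling. Under bright-probe centring the SDs (home cage, conditioned) were 0.23 and 0.26 for miR-10 and 0.10 and 0.037 for the others. Under spike-in centring they were 0.71 and 0.12 for miR-10 and 0.38 and 0.19 for the others. Without home cage array 1 the home cage SDs under spike-in centring were 0.096 for miR-10 and 0.067 for the others. Under bright-probe centring they were then 0.075 and 0.017. Median centring of all 8 arrays kept the smaller spread, with SDs of 0.015 and 0.014 for miR-10 and 0.35 and 0.22 for the others. After quantile normalisation, the median SD of an arm over the 8 arrays was 0.033 for miR-10 and 0.11 for the other members. It was 0.067 for all mouse names and 0.10 for those above background on all arrays. An offset was added before the logarithm, which narrows differences between dim probes.

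Most other miRNAs of the Hox clusters also lay near background. Of 7 arms of miR-196a, miR-196b and miR-615, 2 were above background on all arrays, miR-196a-1* and miR-615-3p, and mature miR-196a was on 4 arrays and miR-196b on 3. In Hy3 4 were higher and 3 lower, 0 passed the adjusted threshold, and 4 had an unadjusted p under 0.05, against 14.1% of all names. Of these 4, miR-196b and miR-615-3p were lower and miR-196a-1* and miR-196a-2* higher. MiR-615-3p, at 6.89 ± 0.096 and 6.67 ± 0.054, differed by -0.22 in Hy3 (95% interval -0.34 to -0.10, limma adjusted p = 0.152) and by -0.0066 in the ratio (adjusted p = 0.980). The list's median was 0.0020 in Hy3 and 0.018 in the ratio.

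Among the let-7 miRNAs encoded between the members' hairpins, mature let-7a, let-7c and let-7e were low on home cage array 1, while let-7e* and let-7a-2* were highest there among the home cage arrays (6.84 and 6.88). Mature let-7c, made from chromosome 16 and also from chromosome 15, read 9.93, 11.02, 11.04 and 11.03 in the home cage and 10.92 to 11.09 after conditioning. Let-7e, the middle miRNA on chromosome 17, read 10.07, 10.60, 10.59 and 10.46 in the home cage and 10.44 to 10.55 after conditioning. Apart from that array the groups of let-7c and of let-7e overlapped, and limma's adjusted p was 0.664 for let-7c and 0.783 for let-7e. Mature let-7a, made from chromosome 9 and also from chromosome 13, had groups without overlap. It read 9.53, 10.31, 10.38 and 10.27 in the home cage and 10.42 to 10.45 after conditioning. Its difference was 0.31 (95% interval -0.092 to 0.71, limma adjusted p = 0.432). Groups without overlap occurred in 9.47% of the names with a Hy3 value on every array. Of the 7 let-7a, let-7c and let-7e arms, 5 were higher in Hy3 and 7 in the ratio, 0 passed, and the medians were 0.072 and 0.064. Of all names, 493 of 1034 were higher in Hy3 and 653 of 1033 in the ratio. The arms include let-7a-1*/let-7c-2*, which comes from hairpins outside the members' clusters.

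The 3 pairs of members encoded together, and miR-10a with miR-10b, were compared across the 8 arrays. In Hy3 miR-99b and miR-125a-5p, the outer hairpins of the 692 base cluster, correlated with Pearson's r = 0.85 (exact permutation p = 0.00719, adjusted over the 4 pairs 0.0265) and Spearman's rho = 0.83 (exact permutation p = 0.0154, adjusted 0.0615). Without the 2 arrays farthest on miR-99b r was 0.70 (exact permutation p = 0.108), so the relation no longer passed, and it was 0.94 without home cage array 1. It was 0.96 to 0.99 under the 3 centrings, 0.35 without background subtraction (0.94 when home cage array 1 was also left out) and -0.090 in the deposited ratio. The 8 values of a pair share their arrays and their normalisation.

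The partners on chromosomes 16 and 9 gave relations whose sign depended on the arrays and the scaling. MiR-99a and miR-125b-5p had r = -0.78 (exact permutation p = 0.0132, adjusted 0.0265) with rho = -0.71 (exact permutation p = 0.0576), and r = -0.43 without the 2 farthest arrays, so it rests on those. It turned to 0.86, 0.38 and 0.49 under median, spike-in and bright-probe centring. MiR-100 and miR-125b-5p had r = -0.60 with rho = 0.14 (exact permutation p = 0.153 and 0.752), and r = 0.59 without the 2 farthest arrays. MiR-10a and miR-10b, on separate chromosomes, had r = -0.51 with rho = -0.45 (exact permutation p = 0.195 and 0.267), and r = -0.36 without the 2 farthest arrays. Under median, spike-in and bright-probe centring their r was -0.87, 0.99 and 0.97. Without the 2 arrays farthest under each centring it was -0.87, 0.55 and 0.87.

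Among the 479 other mouse probes above background on all arrays, those most like each member in Hy3 were found by Pearson's r over the 8 arrays, as a description of arrays that share scaling. For miR-125a-5p they were miR-148b (r = 0.96, and 0.87 in the ratio) and miR-29a* (0.96 and 0.34). For miR-125b-5p they were miR-376c (0.97 and 0.53) and miR-3084* (0.96 and -0.66). MiR-99a was most like let-7c, its neighbour on chromosome 16 (0.97 and 0.53), and miR-290-5p (0.96 and 0.20), but without home cage array 1 the Hy3 r was 0.072 and 0.56. MiR-99b was most like miR-20a (0.95 and 0.46) and miR-30e* (0.94 and 0.51), and miR-10a was most like miR-7b* (0.87 and 0.49) and miR-466j (0.87 and -0.25). For miR-100 they were miR-140* (0.998 and 0.77) and miR-30b (0.98 and 0.89), with a Hy3 r of 0.99 and 0.59 without home cage array 1. For the other members' probes it was 0.85 to 0.95 without that array.

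Marker miRNAs of the cell types a punch can hold were checked beside these results. The neuronal list of miR-124, miR-9, miR-128 and miR-138 had 8 of 10 arms above background on all arrays, with per-array means of those arms of 10.56 to 10.65 in the home cage and 10.55 to 10.81 after conditioning. These means join arms that went opposite ways. In Hy3 4 of the 10 were higher and 6 lower, with a median of -0.0052. At an unadjusted p under 0.05 in limma there were 3, against 14.1% of all names. Of these miR-124 was lower (-0.19), and miR-138-1* (0.15) and miR-138-2* (0.27) were higher. The choroid plexus list had the highest medians of the 7 lists, at 0.19 in Hy3 and 0.28 in the ratio. In each measure 9 of its 10 arms were higher, against 493 of all 1034 names in Hy3 and 653 of 1033 in the ratio. Of the choroid plexus arms 7 were above background on all arrays, with per-array means of 7.18 to 8.40 in the home cage and 7.51 to 8.58 after conditioning. The lowest, 7.18, was home cage array 1, which had the uneven background. In the astrocyte, oligodendrocyte, microglia, vessel and red blood cell lists the medians lay between -0.045 and 0.022 in Hy3. In all 7 lists 0 arms passed the adjusted threshold in limma, and their part in the members' differences was not tested.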

How the data were processed

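MicroRNA was profiled in amygdala punches of 8 mice, 4 per group, on a 6th generation miRCURY LNA array with human, mouse and rat probes. Spot intensity, local background intensity and a flag, for 1 channel taken as Hy3, make up the deposited scanner files, per the file headers. The authors' deposited log ratios were taken as log2 of sample over pool: against them log2 Hy3 had a slope of 0.900 over 20 probes, and per-array deviations correlated at 0.341 to 0.739. For the ratios, log base and normalization are not stated in any source used here. Their medians per array were 0.0014 to 0.029, and 15 to 26 mouse values per array are missing.

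Intensities were corrected with normexp (offset 50) and quantile normalized over 10488 capture spots, leaving out spots flagged 3 (poor shape) or 4 (background above signal), and the 4 spots of a probe were averaged, in limma 3.58.1 under R 4.3.3. The offset understates changes of dim probes. Groups were compared two-sided with lmFit and eBayes, with Benjamini-Hochberg adjustment over all mouse names and an adjusted p under 0.05 as the threshold; the scripts were tested on simulated data. Single values and correlations used exact permutation tests (SciPy 1.17.1). Each array is 1 animal, and 4 arrays per group limit the precision. Figures used matplotlib 3.10.9.

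The members and lists were chosen with earlier results of these data known. Named besides the members were the 2 bright probes most correlated with each mature member above background on all arrays, and the Hox, let-7, same-seed and cell type lists. Alternatives changed the offset, background, scaling, flags, probes tested and arrays. Replicate numbers did not pair the arrays: same-numbered deviations correlated at -0.087, 0.031, -0.62 and 0.0046 over 480 probes.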

Additional observations from a re-analysis of the deposited data

Results flagged for a closer look

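Among the members, 58 groups of 4 values (each member, group and measure, where all 4 arrays gave a value) were examined for an array standing far from the other 3 of its group, and 8 did. Chance alone gives about 1 in 20 groups. Home cage array 1 was the array in 6 of the 8. In Hy3 it read 7.10 for miR-100 (other home cage arrays 8.18 to 8.27), 7.92 for miR-99a (8.78 to 8.90) and 6.69 for miR-125b-2-3p (7.14 to 7.20), the low values described with their local backgrounds above. It was high at 6.78 for miR-125b-1-3p (6.59 to 6.61) and 6.77 for miR-99b* (6.65 on each other array), and the ratio of miR-10a* there was -0.0041 (others -0.11 to -0.090). The other 2 were ratios: miR-125a-5p on home cage array 3 at -0.19 (others -0.34 to -0.32), and miR-99b on fear conditioned array 4 at 0.059 (others -0.13 to -0.11).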

How the results depend on the processing

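The number of arrays, the offset at dim probes and the uneven background of home cage array 1 limit these values. No member passed the adjusted threshold in limma under any of the 17 Hy3 or 11 ratio alternatives, the lowest adjusted p being 0.125 and 0.342. The sign held throughout for 2 members in Hy3 (miR-10b, miR-99a*) and 8 in the ratio. Centring on bright probes, leaving out spots of high local background, and correlations without background subtraction were chosen after seeing the data. Spike-in and bright-probe centring moved the median Hy3 difference of all mouse names to -0.18 and -0.16.

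All names called in Hy3 numbered 2. There were 0 without background subtraction (128 at an unadjusted p under 0.05), with median centring (52), spike-in centring (1), bright-probe centring (15) or a replicate block (85). There was 1 with flagged spots kept or among the 624 probes above background on at least 4 arrays, 4 without spots of high background, and 0 to 2 with 1 array left out. In the ratio 0 were called throughout (45 to 130 unadjusted). The replicate numbers do not pair the arrays, and the block called no member.

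Hy3 differences turned sign as follows, and the cause was not tested. With median centring they were 0.14 for miR-125a-5p and miR-99b, 0.12 for miR-125b-5p, 0.23 for miR-125b-2-3p, 0.018 for miR-125b-1-3p, 0.052 for miR-125a-3p, 0.086 for miR-99b* and -0.0041 for miR-100*. With spike-in and bright-probe centring they were -0.18 and -0.16 for miR-10a, -0.24 and -0.22 for miR-100*, -0.21 and -0.19 for miR-10a*, and -0.20 and -0.18 for miR-10b*, and bright-probe centring gave 0.014 for miR-125b-2-3p. Without background subtraction they were -0.0022 for miR-10a, 0.018 for miR-125b-1-3p, -0.11 for miR-100*, 0.031 for miR-99b* and -0.072 for miR-10b*. With flagged spots kept they were -0.0090 for miR-10a, -0.094 for miR-100*, 0.075 for miR-99b* and -0.012 for miR-10b*. Without spots of high background they were -0.015 for miR-100, -0.013 for miR-99a, -0.0021 for miR-100* and -0.017 for miR-10b*, and offset 10 gave 0.045 for miR-125b-2-3p. Median-centred ratios gave -0.0065 for miR-99a and -0.00057 for miR-10b*.

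With 1 array left out, Hy3 differences ran from -0.059 to 0.33 for miR-100, -0.074 to 0.25 for miR-99a, -0.13 to 0.038 for miR-125b-2-3p, -0.012 to 0.027 for miR-10a, -0.029 to 0.023 for miR-100*, -0.027 to 0.016 for miR-99b* and -0.0073 to 0.011 for miR-10b*. Ratio differences ran from -0.028 to 0.23 for miR-100, -0.054 to 0.078 for miR-99a, -0.049 to 0.15 for miR-125b-2-3p, -0.027 to 0.036 for miR-99b, -0.022 to 0.035 for miR-10b*, -0.027 to 0.18 for miR-99b* and -0.020 to 0.097 for miR-125a-3p.

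The miR-10 set against the other arms moved from 0.037 to -0.14 when arrays were centred, whichever centring was used, since a constant per array cancels in it. Without home cage array 1 these values were 0.084 and 0.026, so the sign did not turn. With spots of high local background left out, the quantile-normalised value was 0.093. The correlation of miR-99b and miR-125a-5p (0.85) was 0.35 without background subtraction (0.94 without home cage array 1 as well), 0.82 without spots of high background, 0.70 without the 2 farthest arrays and -0.090 in the ratio. For miR-99a and miR-125b-5p (-0.78) these were -0.79, -0.69, -0.43 and -0.11, and median, spike-in and bright-probe centring gave 0.86, 0.38 and 0.49. For miR-100 and miR-125b-5p (-0.60) the 3 centrings gave 0.92, 0.43 and 0.66, the ratio 0.19 and leaving out 2 arrays 0.59. For miR-10a and miR-10b (-0.51) they gave -0.87, 0.99 and 0.97.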
